A study of Mus musculus with 6 samples.

Results

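The Hoxb cluster was followed through its 8 genes from Hoxb2 to Hoxb9, taken by symbol from the 55334 gene rows of the count table. They had been chosen by the difference between their JAG2KO and Scramble counts, so that difference is described below and not tested. All 8 had a row, and all 8 passed the filter on low counts. Hoxb5 and Hoxb9 reached its minimum in all 3 Scramble libraries but not in all 3 JAG2KO libraries, so they passed through the group in which they were higher. RNA came from Lewis lung carcinoma cells, a mouse lung tumour line, that carried GFP. In the Scramble group (3 libraries) the guide RNA was a scrambled one, and in the JAG2KO group (3 libraries) it was directed at Jag2, a Notch ligand. The cells had grown as flank tumours to endpoint and were dissociated and sorted as GFP-positive, CD45-negative and DAPI-negative. All 6 libraries share the line, the GFP label, the flank site and the sort. The labels do not state the strain, age or number of the mice, or whether each line was 1 clone or a pool. P-values therefore measure only the spread between these libraries, which may be technical. The Scramble libraries are Scramble1 to Scramble3, and the JAG2KO libraries are named as in the table, JagKO2 to JagKO4.

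Hox genes encode homeodomain transcription factors that give cells along the head to tail axis their regional identity. In each cluster the genes stand in the order in which they are switched on, with low-numbered genes at the 3′ end active earlier and further forward, and high-numbered genes at the 5′ end active later and further back. Retinoic acid opens the 3′ end, Cdx factors act on central genes, Polycomb complexes hold Hox genes silent and Trithorax complexes keep them active. Hox proteins bind DNA together with Pbx and Meis partners. Developing and adult lung express many 3′ Hox genes, mostly in mesenchyme.

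The genes share a homeobox, and reads that fall in it are those that could be confused between family members. A stretch of it is therefore shown for all 8. It was picked as the in-frame stretch in which the other members differed least from Hoxb2, so its identities do not stand for whole genes. The windows are 60 bases of coding sequence on the plus strand of GRCm38, at chr11:96353024-96353083, chr11:96345707-96345766, chr11:96320095-96320154, chr11:96304946-96305005, chr11:96300728-96300787, chr11:96289424-96289483, chr11:96284213-96284272, chr11:96274698-96274757 for Hoxb2 to Hoxb9 in that order. Capitals mark the 34 positions that vary among the 8 genes, and small letters the 26 that do not.
Hoxb2: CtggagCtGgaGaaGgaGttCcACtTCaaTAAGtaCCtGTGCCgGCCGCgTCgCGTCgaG
Hoxb3: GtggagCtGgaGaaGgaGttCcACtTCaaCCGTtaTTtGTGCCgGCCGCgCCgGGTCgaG
Hoxb4: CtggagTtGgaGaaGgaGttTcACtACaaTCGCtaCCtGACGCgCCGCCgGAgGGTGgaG
Hoxb5: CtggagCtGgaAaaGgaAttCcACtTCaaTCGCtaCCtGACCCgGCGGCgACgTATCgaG
Hoxb6: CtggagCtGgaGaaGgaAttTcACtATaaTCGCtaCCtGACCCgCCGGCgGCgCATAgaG
Hoxb7: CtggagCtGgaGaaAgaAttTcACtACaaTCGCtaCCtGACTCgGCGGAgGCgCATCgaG
Hoxb8: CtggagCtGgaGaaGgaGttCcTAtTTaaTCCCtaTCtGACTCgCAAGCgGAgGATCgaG
Hoxb9: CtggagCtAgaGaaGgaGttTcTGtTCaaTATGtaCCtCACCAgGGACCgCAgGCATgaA
Hoxb6 and Hoxb7 were the most alike pair in this window, with 90.0% identity and 6 differences. Hoxb3 and Hoxb9, and likewise Hoxb7 and Hoxb9, shared 61.7%, with 23 differences. Over whole exons, stretches of 50 bases that also occur in another Hox gene were at most 0.12% of a member's stretches (3 of 2516 in Hoxb4). Overlap with antisense genes was larger. Hoxb3os, on the opposite strand, covers 2250 exon bases of Hoxb3 (52.9%) and 953 of Hoxb2 (27.3%), and Hoxb5os covers 100 of Hoxb5 (3.6%). Whether strand was used in counting is not stated, so it is not known how reads in these shared bases were assigned.

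Upstream sequence on GRCm38.p6 was at hand in the RefSeq promoter table for 2 of the 8 members, Hoxb8 and Hoxb4. They stand on the 2 sides of Hoxb5, and are shown because their levels differed by unlike amounts between the groups. The 250 bases before each start are chr11:96281655-96281904 for Hoxb8 and chr11:96318017-96318266 for Hoxb4, both on the plus strand. Capitals mark matches to TTTATNG, the letters that Cdx factors prefer, searched on both strands.
Hoxb8: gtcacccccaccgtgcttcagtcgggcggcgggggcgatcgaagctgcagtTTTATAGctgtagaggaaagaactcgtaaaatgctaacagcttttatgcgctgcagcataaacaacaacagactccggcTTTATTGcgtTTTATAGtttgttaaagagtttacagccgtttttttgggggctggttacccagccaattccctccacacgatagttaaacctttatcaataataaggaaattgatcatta
Hoxb4: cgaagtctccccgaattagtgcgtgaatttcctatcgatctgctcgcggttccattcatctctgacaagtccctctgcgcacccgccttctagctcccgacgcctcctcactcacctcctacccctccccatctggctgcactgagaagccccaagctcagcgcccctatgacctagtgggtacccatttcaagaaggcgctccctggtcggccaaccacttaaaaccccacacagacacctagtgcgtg
The Hoxb8 window held 3 matches and the Hoxb4 window 0. Of the 32851 windows of this length in the table, 9.81% held at least 1 match and 0.0487% held 3 or more. The letters TGATNNAT, preferred by Pbx-Hox pairs, occurred 1 time for Hoxb8 and 0 times for Hoxb4, against 7.68% of windows with a match. CCAAT, bound by the Nfy complex, occurred 1 and 0 times, against 33.8%. TATAAA occurred 2 and 0 times, against 12.4% of windows with a match and 2.1% with 2 or more. Both matches overlapped TTTATNG matches. The Hoxb8 window had 44.4% GC and 12 CpG, and the Hoxb4 window 58.0% GC and 14 CpG, beside medians of 52.4% and 6. A match describes letters and is not a bound site.

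The libraries held 37036772 to 43923565 counts, and 3 counts were worth 0.068 to 0.0811 CPM, which are counts scaled to the library total. The targeted gene, Jag2, was at 1.52, 1.1 and 1.02 CPM in Scramble1 to Scramble3 and at 0.513, 0.798 and 1.11 CPM in JagKO2 to JagKO4. The groups overlapped, and the log2 difference of -0.58 (SE 0.39) did not pass the test (edgeR quasi-likelihood, adjusted p = 0.318). Editing with a guide RNA changes DNA and need not remove the transcript, so this level does not check the labels. The labelled cell type, lung, was set against 15 lung epithelial markers. Nkx2-1, Sftpa1, Sftpb and Sftpd were at 0 counts in all 6 libraries, and Sftpc and Scgb1a1 were under 0.1 CPM, whereas Krt18 led the list. The other tested markers had these mean CPM in Scramble and JAG2KO. Krt8 was at 124 and 4.13, Foxa2 at 3.35 and 1.73, Foxa1 at 2.6 and 2.05, and Ager at 1.72 and 3.2. Krt19 was at 1.38 and 0.47, Epcam at 0.711 and 0.503, Cdh1 at 0.698 and 0.633, and Foxj1 at 0.314 and 0.604.

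All 8 members had lower values in JAG2KO than in Scramble, and for all 8 every JAG2KO library lay below every Scramble library. The same was true of 20.9% of all 16049 genes tested. Of the 8, 6 were called lower by edgeR at an adjusted p under 0.05, beside 12.5% of all genes; Hoxb2 and Hoxb3 were not. The genes were chosen with this contrast in view and nothing is read from these counts. Their log2 fold changes, JAG2KO over Scramble, ran from -6.08 to -0.60 with a median of -1.84, against a median of 0.002 over all genes. In bulk libraries, fewer cells of a type and less RNA per cell cannot be told apart.

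**Figure D1:**
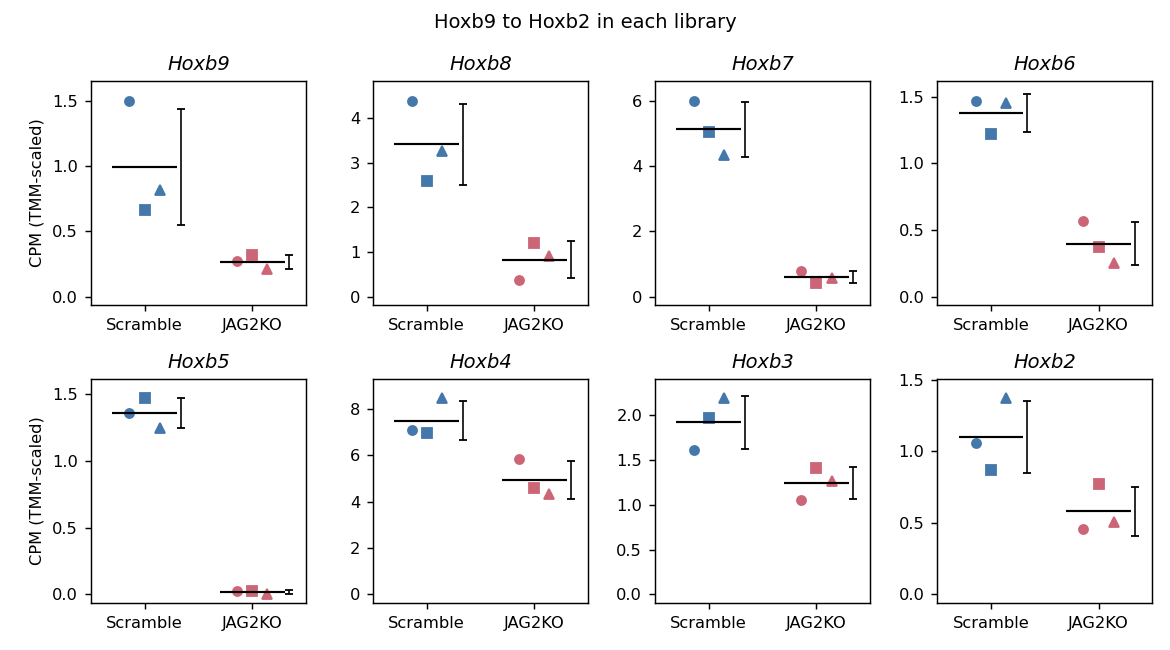
Level of each Hoxb member in every library, in TMM-scaled CPM on a linear axis scaled for each gene. Circles, squares and triangles are single libraries, horizontal lines group means and whiskers SD (n = 3); in each of the 8 panels all JAG2KO points lie below all Scramble points, and Hoxb5 is at or close to 0 in JAG2KO.

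The members are given here from the 5′ end of the cluster, and all lie on the plus strand of chromosome 11 of GRCm38. Hoxb9 (ENSMUSG00000020875.9, 96271457 to 96276595) patterns the thoracic skeleton with its paralogues. It stood at 1.5, 0.665 and 0.814 CPM in Scramble1 to Scramble3 and at 0.270, 0.319 and 0.208 CPM in JagKO2 to JagKO4. Scramble1 stood above its partners, which were still more than any JAG2KO library. The means were 0.991 ± 0.443 and 0.266 ± 0.0559 CPM (SD, n = 3), a log2 fold change of -1.89 (SE 0.50). These are low values, from 29 to 66 counts in a Scramble library and 9 to 12 in a JAG2KO library. Without Scramble1 the log2 fold change was -1.46 (SE 0.56).

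Hoxb8 (ENSMUSG00000056648.5, 96281905 to 96285315) acts in the spinal cord and holds myeloid progenitors immature when forced on. Its CPM were 4.39, 2.59 and 3.26 in Scramble1 to Scramble3 and 0.378, 1.2 and 0.900 in JagKO2 to JagKO4. JagKO2 was the lowest of its group, at 14 counts against 45 and 39. The group means were 3.41 ± 0.912 and 0.825 ± 0.414 CPM, so JAG2KO held 24.2% of the Scramble level. The log2 fold change was -2.04 (SE 0.38), and -1.70 (SE 0.32) without JagKO2.

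Hoxb7 (ENSMUSG00000038721.8, 96286623 to 96290162) is active in the ureteric bud and in many carcinomas. It was the most abundant member per length in Scramble, together with Hoxb4. Its CPM were 6, 5.04 and 4.32 in Scramble1 to Scramble3 and 0.784, 0.426 and 0.577 in JagKO2 to JagKO4. The groups lay far apart beside their spread, with means of 5.12 ± 0.842 and 0.595 ± 0.180 CPM. The level was 8.61-fold lower in JAG2KO, a log2 fold change of -3.10 (SE 0.29).

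Hoxb6 (ENSMUSG00000000690.5, 96292476 to 96301569) is a marker of lateral plate mesoderm. It was at 1.47, 1.22 and 1.45 CPM in Scramble1 to Scramble3 and at 0.567, 0.372 and 0.254 CPM in JagKO2 to JagKO4. The Scramble libraries lay close together, and JagKO2 was the highest JAG2KO library. Means were 1.38 ± 0.142 and 0.398 ± 0.158 CPM, a log2 fold change of -1.79 (SE 0.42; -2.14 without JagKO2). Hoxb7, with the similar homeobox shown above, lies 2.3 kb away.

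Hoxb5 (ENSMUSG00000038700.4, 96303336 to 96306121) acts in lung branching and in the neural crest of the gut. It had 60, 64 and 49 counts in Scramble1 to Scramble3 and 1, 1 and 0 counts in JagKO2 to JagKO4. In CPM this was 1.36 ± 0.111 in Scramble, with little spread, and 0.0270, 0.0266 and 0 in the JAG2KO libraries. Every JAG2KO library was therefore under the level of 3 counts. The ratio of group counts, scaled for depth, was 80.3-fold (173 against 2 counts; exact 95% binomial interval 21.9 to 668, counting error only). Without JagKO4 it was 50.8-fold (13.8 to 423). The fitted log2 fold change of -6.08 (SE 0.67) depends on the prior count and is no bound.

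Hoxb4 (ENSMUSG00000038692.8, 96318267 to 96321638) expands blood stem cells when overexpressed. It was at 7.09, 6.95 and 8.47 CPM in Scramble1 to Scramble3 and at 5.86, 4.60 and 4.34 CPM in JagKO2 to JagKO4. JagKO2 came nearest to Scramble, but the groups did not overlap. Means were 7.5 ± 0.84 and 4.93 ± 0.815 CPM, so 65.8% of the Scramble level was found in JAG2KO and the log2 fold change was -0.60 (SE 0.18).

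Hoxb3 (ENSMUSG00000048763.11, 96323326 to 96347930) and Hoxb2 (ENSMUSG00000075588.6, 96350525 to 96354012) pattern the hindbrain segments. Hoxb3 was at 1.61, 1.97 and 2.19 CPM in Scramble1 to Scramble3 and at 1.05, 1.41 and 1.27 CPM in JagKO2 to JagKO4. Hoxb2 was at 1.06, 0.871 and 1.37 CPM in Scramble1 to Scramble3 and at 0.459, 0.771 and 0.508 CPM in JagKO2 to JagKO4. Their groups lay close together, with a gap between the nearest libraries smaller than the SD in Scramble. Hoxb3 had means of 1.92 ± 0.293 and 1.24 ± 0.179 CPM and a log2 fold change of -0.62 (SE 0.29). Hoxb2 had means of 1.1 ± 0.253 and 0.579 ± 0.168 CPM and a log2 fold change of -0.93 (SE 0.41).

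Along the cluster, the log2 fold changes were thus nearer 0 for the 3 genes at the 3′ end than for the 5 that follow. A gap of 12.1 kb separates Hoxb5 from Hoxb4, the widest between neighbouring members; the others are 1.3 to 5.3 kb. On either side of it, the split chosen after the values were seen, the summed CPM of Hoxb2 to Hoxb4 was 10.5 ± 1.30 in Scramble and 6.76 ± 0.632 in JAG2KO (1.56-fold lower). That of Hoxb5 to Hoxb9 was 12.3 ± 2.13 and 2.10 ± 0.212 (5.84-fold lower). Hoxb2 to Hoxb4 made up 46.3% ± 6.12 of the members' summed CPM in Scramble and 76.2% ± 2.07 in JAG2KO. Most of this share was Hoxb4, at 33.0% ± 3.86 and 55.6% ± 6.14. The antisense row Hoxb3os, over Hoxb2 and Hoxb3, had a log2 fold change of -1.71 (SE 0.78) and was not called.

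**Figure D2:**
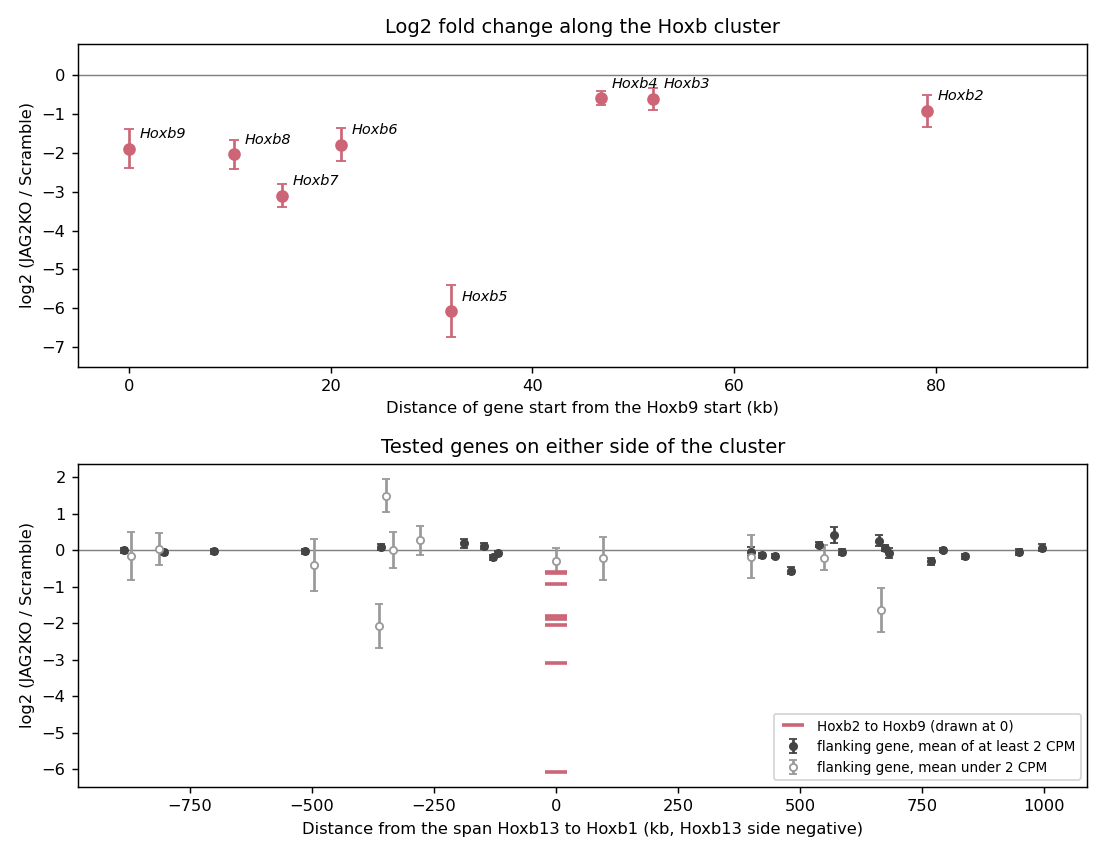
Upper panel: log2 fold change (JAG2KO over Scramble) of each member against the distance of its start from the Hoxb9 start in kb, with standard errors from the fit over all genes; Hoxb2, Hoxb3 and Hoxb4, at 46.8 to 79.1 kb, lie between -0.93 and -0.60, and Hoxb5 at 31.9 kb is lowest at -6.08. Lower panel: the same for the 36 tested flanking genes against their distance from the cluster in kb, filled for a mean of at least 2 CPM and open below it, with the 8 members as dashes at 0; the flanking genes lie between -2.07 and 1.5.

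**Figure D3:**
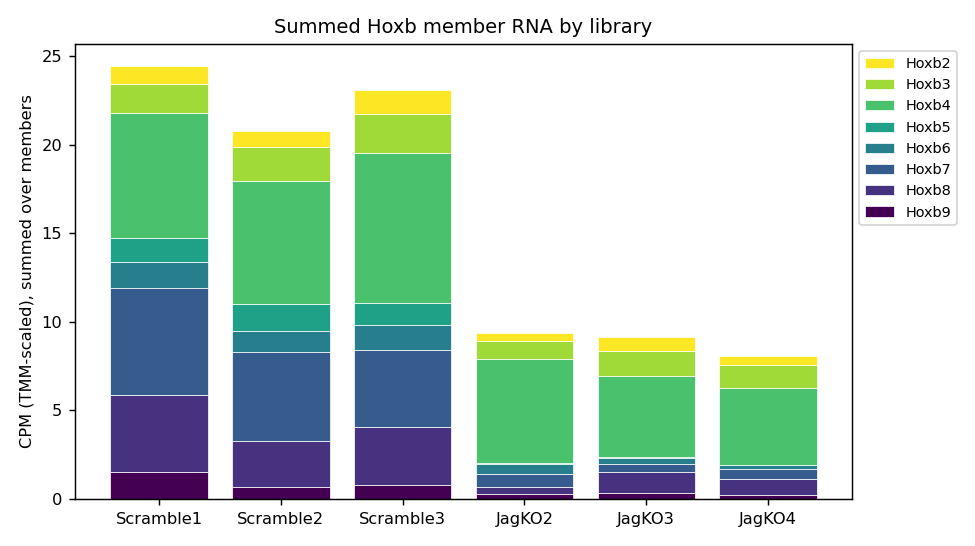
TMM-scaled CPM of the 8 members, stacked by gene, in each of the 6 libraries. Bar heights are 20.8 to 24.5 CPM in Scramble and 8.05 to 9.4 CPM in JAG2KO; the lower part, Hoxb5 to Hoxb9, is 11 to 14.7 and 1.94 to 2.34 CPM, and the upper part, Hoxb2 to Hoxb4, 9.76 to 12 and 6.11 to 7.38 CPM.

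Levels were compared between genes per kb of exon. Exon bases shared with Hoxb3os (52.9% of Hoxb3 and 27.3% of Hoxb2) were kept in the lengths, so the places of these members are less certain. In Scramble the order was Hoxb7 (3.32 ± 0.546 CPM per kb), Hoxb4 (2.92 ± 0.327), Hoxb8 (1.30 ± 0.346), Hoxb6 (0.702 ± 0.0725), Hoxb5 (0.487 ± 0.0397), Hoxb3 (0.452), Hoxb9 (0.385) and Hoxb2 (0.316). Hoxb7 and Hoxb4 overlapped across libraries, as did each neighbouring pair from Hoxb5 down. In JAG2KO the order was Hoxb4 (1.92 ± 0.318 CPM per kb), Hoxb7 (0.386 ± 0.116), Hoxb8 (0.313), Hoxb3 (0.293), Hoxb6 (0.203), Hoxb2 (0.166), Hoxb9 (0.103) and Hoxb5 (0.00642). Hoxb4 stood alone at the top there, and the neighbours from Hoxb7 to Hoxb2 overlapped. Within groups the members did not all move together. Scramble1 was the highest Scramble library for 4 members and Scramble2 the lowest for 5, while JagKO2 and JagKO3 were each the highest JAG2KO library for 4.

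The 6 other Hoxb and miRNA rows of the cluster held few reads. Gene models within its span, such as Gm11539, are counted with the flanking genes below. Hoxb1, at the 3′ end, had 0 counts in all 6 libraries. Hoxb13, beyond Hoxb9, had 4, 0 and 4 counts in Scramble and 0 in JAG2KO. Hoxb3os, the antisense RNA over Hoxb2 and Hoxb3, was the 1 row of 6 that was tested, at 0.757 ± 0.207 CPM in Scramble and 0.225 ± 0.244 in JAG2KO. Its log2 fold change of -1.71 (SE 0.78) was not called by edgeR (adjusted p = 0.138; 0.0366 with no filter on low counts). JagKO4 held 21 of its 28 JAG2KO counts; without that library the log2 fold change was -2.97 (adjusted p = 0.0518), and without JagKO3 it was -1.14 (adjusted p = 0.214), and limma-voom gave -2.70 (adjusted p = 0.0553). No row was called at an unadjusted p under 0.05 either, nor by DESeq2 or limma-voom. Hoxb5os had 31 counts in the Scramble libraries and 2 in those of JAG2KO (14.4-fold, exact 95% binomial interval 3.66 to 124, counting error only).

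The genes around the cluster were taken from 1 Mb on either side, with the gene models within its span. Of 84 listed, 36 were tested, and edgeR called 1 higher and 3 lower, which is 11.1% against 24.3% of all genes tested. Their median log2 fold change was -0.04. Next to the cluster, Atp5g1, a subunit of the mitochondrial ATP synthase and the nearest tested gene on the Hoxb13 side, was at 82.9 ± 5.03 CPM in Scramble and 78.6 ± 2.25 in JAG2KO. Skap1, an adaptor of T cell signalling 96.3 kb from the other end, was at 0.971 and 0.834 CPM. Neither was called (adjusted p = 0.45 and 0.834), nor was the gene model Gm11539 within the span of the cluster (1.1 and 0.906 CPM, adjusted p = 0.608). Copz2, a subunit of the COPI coat 481.6 kb from the cluster, fell from 26.6 ± 0.722 to 18.0 ± 1.74 CPM (log2 -0.56, SE 0.10, adjusted p = 0.00145). Phospho1, a phosphatase of bone mineralisation, fell from 0.401 to 0.0933 CPM (adjusted p = 0.0281), and Tbkbp1, an adaptor of the TBK1 kinase, from 109 ± 15.7 to 88.0 ± 3.08 CPM (adjusted p = 0.0327). Gngt2, named after its values were seen, rose from 0.355 to 1.01 CPM (adjusted p = 0.0338). Leaving out 1 library ended the call of Phospho1 in all 6 cases (adjusted p 0.0738 to 0.12). It ended that of Gngt2 in all but the fit without JagKO4 (0.055 to 0.159), and that of Tbkbp1 without JagKO4, Scramble1 or Scramble3 (0.0958 to 0.126).

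The other Hox clusters were compared next, since paralogues with the same number have similar proteins and often overlapping functions. Of 11 Hoxa genes tested, 8 rose and 1, Hoxa11, fell, which is 81.8% called against 24.3% of all genes; 11.8% of all genes were called higher. Hoxa5, which acts in lung morphogenesis, rose from 11.2 ± 3.12 to 29.6 ± 4.2 CPM (log2 1.40, SE 0.18, adjusted p = 0.000158). Hoxa3, which acts in thymus and parathyroid development, rose from 5.50 ± 0.305 to 11 ± 1.49 CPM (log2 1.01, SE 0.15, adjusted p = 0.000524). Hoxa11, a limb and uterus gene at the other end of its cluster, had 1132 counts in the Scramble libraries and 1 in JAG2KO. An antisense gene also overlaps it. Of 6 tested Hoxc genes, Hoxc4 alone was called, falling from 0.766 ± 0.117 to 0.162 ± 0.109 CPM (adjusted p = 0.016). Of 6 tested Hoxd genes, Hoxd4 alone was called, rising from 2.14 ± 0.584 to 3.86 ± 0.491 CPM (adjusted p = 0.0292). Leaving out any of 4 single libraries ended each of these last calls, for Hoxc4 those without JagKO3, JagKO4, Scramble1 or Scramble2 (0.0514 to 0.0655) and for Hoxd4 those without JagKO2, JagKO4, Scramble2 or Scramble3 (0.0572 to 0.109).

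As a share of the summed CPM of the 39 Hox genes listed, the 8 Hoxb members held 13.7% ± 0.348 in Scramble and 4.22% ± 0.416 in JAG2KO. The Hoxa share was 43.6% ± 1.27 and 55.9% ± 1.1, and the Hoxd share 41.0% ± 1.52 and 38.4% ± 1.34. Summed CPM were 22.8 ± 1.88 and 8.86 ± 0.713 for Hoxb and 72.1 ± 3.39 and 118 ± 10.3 for Hoxa. For Hoxd they were 68.1 ± 7.38 and 81.2 ± 9.38, so its lower share was not a lower level. Within single paralogue groups, shares were taken per kb of exon, with the same limit for Hoxb2 and Hoxb3 as above. Of group 4, Hoxb4 made up 61.9% ± 5.88 in Scramble and 36.0% ± 3.45 in JAG2KO, while the group's total was 4.74 ± 0.575 and 5.33 ± 0.603 CPM per kb. Of group 7, Hoxb7 made up 26.5% ± 4.27 and 2.79% ± 0.759, at totals of 12.5 ± 0.447 and 13.7 ± 0.521 CPM per kb. Of group 5, Hoxb5 made up 7.85% ± 2.55 and 0.0411% ± 0.0366, at totals of 6.54 ± 1.62 and 15.9 ± 2.25 CPM per kb. Totals were also higher in JAG2KO for group 2 (1.9 ± 0.216 and 3.53 ± 0.407 CPM per kb), group 3 (1.56 ± 0.135 and 2.46 ± 0.228) and group 6 (3.51 ± 0.136 and 7.4 ± 1.84). For groups 8 and 9 they were 11 ± 2.01 and 11.7 ± 1.37, and 14.3 ± 1.5 and 17.2 ± 2.31. These shares rest on the contrast that chose the members and carry no test.

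**Figure D4:**
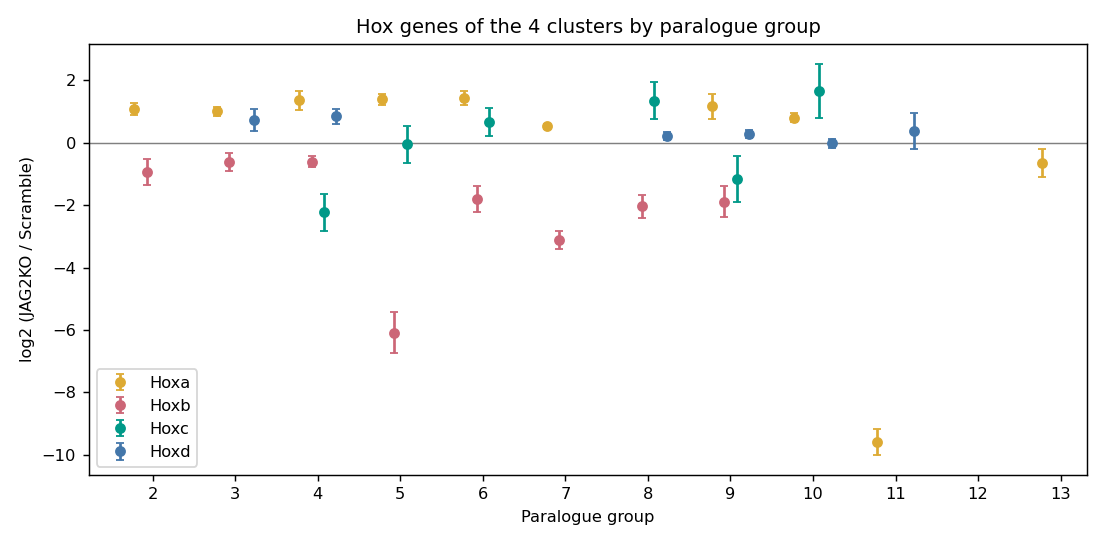
Log2 fold change (JAG2KO over Scramble) of tested genes of each Hox cluster in paralogue groups 2 to 13, with standard errors. The Hoxb members lie between -6.08 and -0.60, the Hoxa genes from Hoxa2 to Hoxa7 between 0.53 and 1.43, and Hoxa11 at -9.59, a fitted value from 1 JAG2KO count that is no bound.

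The pathways that act on or with Hoxb genes were counted from lists of their known genes. Of 11 tested cofactors, 2 rose and 1 fell (27.3% called against 24.3%). Meis1 rose from 28.1 ± 1.19 to 37.4 ± 6.91 CPM (adjusted p = 0.0277), Meis3 rose from 16.0 ± 0.795 to 19.9 ± 0.892 CPM (adjusted p = 0.0396), and Meis2 fell from 28.0 ± 2.14 to 20.5 ± 3.64 CPM (adjusted p = 0.0213). Each call was lost without single libraries. For Meis1 these were JagKO2, JagKO3, Scramble1 and Scramble3 (0.0678 to 0.0867), for Meis2 Scramble1 and Scramble2 (0.0635 to 0.0971), and for Meis3 any library but JagKO2 (0.0538 to 0.123).

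Of 27 Polycomb genes, 3 rose and 6 fell (33.3% called against 24.3% of all genes; median log2 0.06). Cbx7, a reader of the H3K27 mark, rose from 32.6 ± 1.58 to 57.3 ± 5.34 CPM (log2 0.81, SE 0.09, adjusted p = 3.85e-05). Aebp2, an accessory subunit of PRC2, rose from 124 ± 13.9 to 170 ± 7.76 CPM (adjusted p = 0.0018). Ezh2, the PRC2 methyltransferase, fell from 78.5 ± 8.63 to 56.2 ± 3.54 CPM (log2 -0.48, SE 0.09, adjusted p = 0.00186). Of 20 Trithorax and activator genes, 7 rose and 2 fell (45.0% called against 24.3% of all genes; median log2 0.04). Dot1l, the H3K79 methyltransferase, rose from 119 ± 15.8 to 206 ± 29.4 CPM (log2 0.79, SE 0.11, adjusted p = 0.000326). Kdm6a and Kdm6b, which remove the Polycomb mark, rose from 26.7 ± 0.677 to 36.2 ± 1.12 CPM (adjusted p = 0.00163) and from 174 ± 27.5 to 294 ± 78.7 CPM (adjusted p = 0.00632). The 2 that fell were Men1 and Mllt1, named after their values were seen (adjusted p = 0.0127 and 0.0339). Without Scramble2 the Men1 call was lost (0.0705), and that of Mllt1 was lost without JagKO4 or any Scramble library (0.0921 to 0.15).

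Of 18 tested retinoic acid genes, 1 rose and 3 fell (22.2% called against 24.3% of all genes). Crabp1, which binds retinoic acid in the cytoplasm, rose from 1.79 ± 0.503 to 4.74 ± 0.238 CPM (log2 1.41, SE 0.24, adjusted p = 0.0014). Dhrs3, which turns retinaldehyde back into retinol, fell from 18.0 ± 1.59 to 9.15 ± 1.54 CPM (log2 -0.98, SE 0.14, adjusted p = 0.000399). Stra6, the retinol uptake receptor, fell from 53.7 ± 8.31 to 32.5 ± 5.71 CPM (adjusted p = 0.00214). Rxra, a retinoid receptor named after its values were seen, fell as well (log2 -0.28, adjusted p = 0.0211). Without JagKO3, Scramble1 or Scramble2 it was not called (0.061 to 0.0984), at log2 fold changes of -0.26, -0.24 and -0.28. Of 12 tested factors known to act on Hox enhancers and promoters, 1 rose and 1 fell (16.7% called against the same 24.3%). Nfyb, of the complex that binds CCAAT, fell from 43.8 ± 1.29 to 33.7 ± 3.55 CPM (adjusted p = 0.00882). Of the Cdx genes, Cdx1 and Cdx4 were at 0 counts in all 6 libraries, and Cdx2 was at 2.93 ± 0.843 and 2.47 ± 0.510 CPM (adjusted p = 0.564).

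Some cell type markers, those of the lung list included, differed between the groups. Their calls stand beside 11.8% of all genes called higher and 12.5% called lower. The summed CPM of 14 fibroblast and pericyte markers, led by Col3a1, was 5010 to 5120 in Scramble and 6370 to 10000 in JAG2KO, with 7 members higher and 1 lower. The 1 lower was Fap, which fell from 19.0 ± 1.1 to 3.61 ± 1.14 CPM (adjusted p = 5.13e-06). The summed CPM of 12 macrophage markers, led by Lyz2, was 48.3 to 57.7 and 85.9 to 105, with 4 higher and 0 lower. Ptprc, which encodes the CD45 used in the sort, was at 2.15 and 2.92 CPM and was not called. The 13 endothelial markers summed to 144 to 147 and 130 to 155 (6 higher, 1 lower). Most of that sum was Eng, the 1 that fell (101 ± 3.18 to 73.4 ± 11 CPM, adjusted p = 0.00366), whereas Pecam1 rose from 6.37 ± 1.15 to 14.3 ± 3.8 CPM (adjusted p = 0.00134) and Vwf from 1.35 ± 0.224 to 4.66 ± 0.674 CPM (adjusted p = 0.000248). The lung epithelial list summed to 398 to 409 and 291 to 345 (9 tested, 1 higher, 3 lower). Krt8, a simple epithelial keratin, fell from 124 ± 4.59 to 4.13 ± 0.839 CPM (adjusted p = 1.72e-10), while its partner Krt18 was at 267 ± 7.86 and 307 ± 26.4 CPM and was not called (adjusted p = 0.0637). The 12 lymphocyte markers summed to 1.86 to 2.34 and 1.97 to 5.53 (4 tested, 0 called), and 12 muscle, skin and red cell markers to 57.0 to 75.3 and 42.9 to 103 (2 higher, 2 lower). Within that last list, Krt5 rose from 0.0152 to 4.62 CPM (adjusted p = 1.12e-05) and Krt14 from 0.22 to 5.5 CPM (adjusted p = 0.000233). Hbb-bs fell from 27.4 to 8.49 CPM (adjusted p = 0.000992) and Hba-a1 from 20.4 to 8.45 CPM (adjusted p = 0.00206). The single markers given with an adjusted p were named after their values were seen. No marker outside the lung list was at 0 in all libraries. Bulk libraries do not show whether tumour cells or other cells carried these markers. The part of other cells in the Hoxb values was not tested.

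Hoxb4, the member with the highest mean CPM, was set against 10751 genes by Pearson's r of log2 CPM over the 6 libraries. The closest were Fbxo10 (r = 0.9937), Klc1 (0.9895), Ubl4a (0.9891), Phc2 (0.9882) and Dctn1 (0.9881). The 6 points share the contrast between the groups, and r over 6 points is a description.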

How the data were processed

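PolyA RNA of 6 libraries, 3 Scramble and 3 JAG2KO, was analysed from whole-number counts per gene that the authors deposited in 1 table. The submitters' processing notes list STAR 2.7.7a and HTSeq 0.11.2. Their settings, the genome build and the annotation are not stated in labels or table. The table's JAG2KO columns are numbered otherwise than the titles, so they served as replicates without numbers. Of the gene IDs, 55154 matched GENCODE M21 (GRCm38) by stable ID, which gave symbols, coordinates and exon lengths.

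Counts were tested with edgeR 4.0.16 in R 4.3.3 (filterByExpr with minimum count 10 and total 15, TMM, quasi-likelihood F test, Benjamini-Hochberg over 16049 genes, called under 0.05), tested on simulated data. CPM use TMM-scaled totals; errors are SDs over 3 libraries. A standard error is the log2 fold change divided by the root of F. Alternatives were RLE factors, library totals, no filter, CPM 1 in 3 libraries, DESeq2 1.42.0, limma-voom (limma 3.58.1) and each library left out. Named genes are the members, Jag2, up to 3 called genes of smallest p per list (or, with none called, its most abundant), and the 5 most like Hoxb4; some genes that this names are not reported here. The members and lists were chosen with earlier results of these data known.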

Additional observations from a re-analysis of the deposited data

How the results depend on the processing

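The median log2 fold change of the members, -1.84, stayed negative in all 12 alternatives, from -1.99 to -1.60 with 1 library left out. No member changed sign. Hoxb5 ran from -6.46 to -5.51 and Hoxb7 from -3.34 to -2.92, and the count of members called lower from 4 to 6. CPM 1 in 3 libraries dropped Hoxb2 and Hoxb9. With no filter, Hoxb rows outside the members gave 2 calls of 4 tested, in place of 0 of 1. Hoxd genes gave 2 of 7 in place of 1 of 6. With CPM 1 in 3 libraries, flanking genes gave 2 calls of 28 tested, in place of 4 of 36. Hoxc genes gave 0 of 1 in place of 1 of 6. That filter dropped Phospho1, Gngt2 and Hoxc4, so they were not tested, while Copz2 and Tbkbp1 stayed called. With 1 library left out, calls numbered 1 to 2 for flanking genes, 0 to 1 for Hoxc and likewise 0 to 1 for Hoxd genes, and 0 to 2 for cofactors in place of 3. For genes tested in both fits, the cause was not tested. Meis3 was not called with no filter (adjusted p = 0.061), nor was Phospho1 (0.0976). Counts over all genes ran from 1356 to 1926 higher and from 1349 to 2093 lower with 1 library left out. No paired analysis was possible because the JAG2KO columns carry the numbers 2 to 4 and the titles 1 to 3. Depth limits Hoxb5, Hoxb9 and the antisense rows, where a JAG2KO library holds 0 to 21 counts. Counts in a JAG2KO library were also low for Hoxb6 (11 to 21), Hoxb7 (16 to 29), Hoxb8 (14 to 45) and Hoxb2 (17 to 29).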
